A study of Homo sapiens with 4 samples.

Results

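The IKK and TAK1 kinase complexes were examined as a set of 10 genes in RNA sequencing of T24 cells, an established bladder carcinoma line of human origin. The set holds the subunits of the canonical IKK complex (CHUK, IKBKB and IKBKG), the IKK-related kinases IKBKE and TBK1, the TAK1 kinase MAP3K7 with its partners TAB1, TAB2 and TAB3, and the ubiquitin-conjugating enzyme UBE2N. Members were taken by gene name from the deposited table, which lists each of the 10 once among 60623 genes. Of the 4 libraries, 2 came from T24 cells overexpressing miR-146a-5p, where the study's description names a transfected mimic, and 2 from T24 cells given a scramble control. Mimic dose and time of harvest are not given in the sources used here. No label ties the replicates to separate cultures, and every p-value below therefore reflects library-to-library spread that may be technical.

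These kinases form the relay between receptor adaptors and NF-kB. Interleukin-1 and Toll-like receptors act through IRAK1 and the ubiquitin ligase TRAF6, which works with UBE2N to build ubiquitin chains. TAB2 and TAB3 bind those chains and bring in TAK1, and TAK1 phosphorylates the IKK complex, which then marks IkB proteins for degradation and frees NF-kB. TBK1 and IKBKE stand on a parallel branch that phosphorylates interferon regulatory factors. miR-146a-5p is known as a feedback repressor of this pathway through IRAK1 and TRAF6, both upstream of the kinases described here.

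Total estimated counts lay between 20290055 and 22774090 per library. IRAK1, read as a check of the labels, had 109 and 109 CPM (counts scaled to library size) in the miR-146a-5p libraries against 499 and 717 CPM in the scramble libraries. The precursor gene MIR146A was listed at 0 in all 4 libraries. Its host transcript MIR3142HG had 179 and 194 counts with miR-146a-5p against 24 and 9 counts with scramble. Neither row is read as a measure of the transfected mimic, and the cause of the MIR3142HG difference was not tested. The epithelial and mesenchymal genes KRT7, KRT8, KRT18, CD44 and VIM were abundant in every library. KRT19 was less abundant, with 15.9 and 14.4 CPM in the miR-146a-5p libraries and 31.9 and 42.6 CPM in the scramble libraries. EPCAM was low, with 32 and 30 counts in the miR-146a-5p libraries and 19 and 20 counts in the scramble libraries. CD3E, a T cell marker, was at 0, while the monocyte marker CD14 had 25 and 11 counts with miR-146a-5p and 24 and 41 with scramble. COL1A1, a fibroblast marker, had 78 and 80 counts with miR-146a-5p and 37 and 58 with scramble. The other leukocyte, endothelial and fibroblast markers read had at most 6 counts in any library. Scramble replicate 2 stood apart from the other 3 libraries, with a correlation of log2 CPM across genes of 0.925 with scramble replicate 1, against 0.989 between the miR-146a-5p libraries. The tests of the members below are therefore also given without it, as are the fold changes of the named pathway genes.

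Seed sequences are shown first, because the 10 members differ in them from IRAK1 and TRAF6, the known targets upstream of them. The mature microRNA (RefSeq, GRCh38.p14) has its seed, bases 2 to 8, in capitals, and each site is shown 5′ to 3′ on the transcript strand with the bases that pair with the seed region in capitals, plus an A after the pairing bases where the site has one.
miR-146a-5p: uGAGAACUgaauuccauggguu
IRAK1, upstream site: aatccggaagtcaaAGTTCTCAtg
IRAK1, downstream site: ttctcatggtcagaAGTTCTCAtg
TRAF6, 8-base site: gctctagaaagttgAGTTCTCAtt
CHUK: gtgttgcactgaacagGTTCTCtt
TAB1: agactatttcccacatGTTCTCtg
TAB3: gcaataaagttagtagGTTCTCcc

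The 3′ UTR of the longest coding transcript of each gene was searched on the transcript strand in GENCODE release 29 (GRCh38) for AGTTCTCA (8 bases), AGTTCTC, or GTTCTCA (7 bases each), which overlap one another and were counted once per position, with both 7-base forms read as weaker sites. None of the 10 members held such a site, in that transcript or in any other of their annotated coding transcripts, although their 3′ UTRs ran from 585 bases in IKBKG to 4349 bases in UBE2N. Among 12345 tested genes with a 3′ UTR, 79.0% also held none, so having none is the common case. In its longest coding transcript IRAK1 carried 2 sites of 8 bases, on the minus strand at chrX:154011812-154011819 and chrX:154011796-154011803. That of TRAF6 carried 3 of 8 bases and 1 of 7, the printed one at chr11:36489358-36489365 on the minus strand. Of the annotated coding transcripts with a 3′ UTR, 3 of 6 of IRAK1 and 2 of 2 of TRAF6 held a site. The shorter hexamer GTTCTC, with neither the further pairing base nor the A, was found once each in the 3′ UTRs of CHUK (chr10:100189072-100189077, minus strand), TAB1 (chr22:39431271-39431276, plus strand) and TAB3 (chrX:30829936-30829941, minus strand). The heptamer AGTTCTC occurred once outside the 3′ UTR in each of IKBKG, TBK1 and TAB3. A match is a description of the letters and not a measured site.

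None of the 10 transcripts passed the test for a difference between miR-146a-5p and scramble cells. All 10 were expressed well enough to be tested. With edgeR's quasi-likelihood test, adjusted over 14810 genes, 0 members were called and the background was 0% of all genes. At an unadjusted p under 0.05 the count was again 0 members, against 3.71% of all genes, and the lowest unadjusted p was 0.235, for IKBKE. DESeq2 on the same counts called 0 members and 0.324% of all genes, and the authors' deposited table lists an adjusted p of 1.00 for each of the 10. The median log2 fold change over the members was 0.19, with 7 of 10 positive, beside a median of -0.0014 and 49.9% positive over all tested genes. In CPM, both miR-146a-5p libraries lay above both scramble libraries for 2 members, TBK1 and IKBKE, against 18.0% of all genes, and below both for 0 members, against 17.9%. Both lay between the scramble libraries for 6 members, against 38.9% of all genes. In bulk libraries, less RNA per cell and fewer cells that express a gene cannot be told apart.

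**Figure D1:**
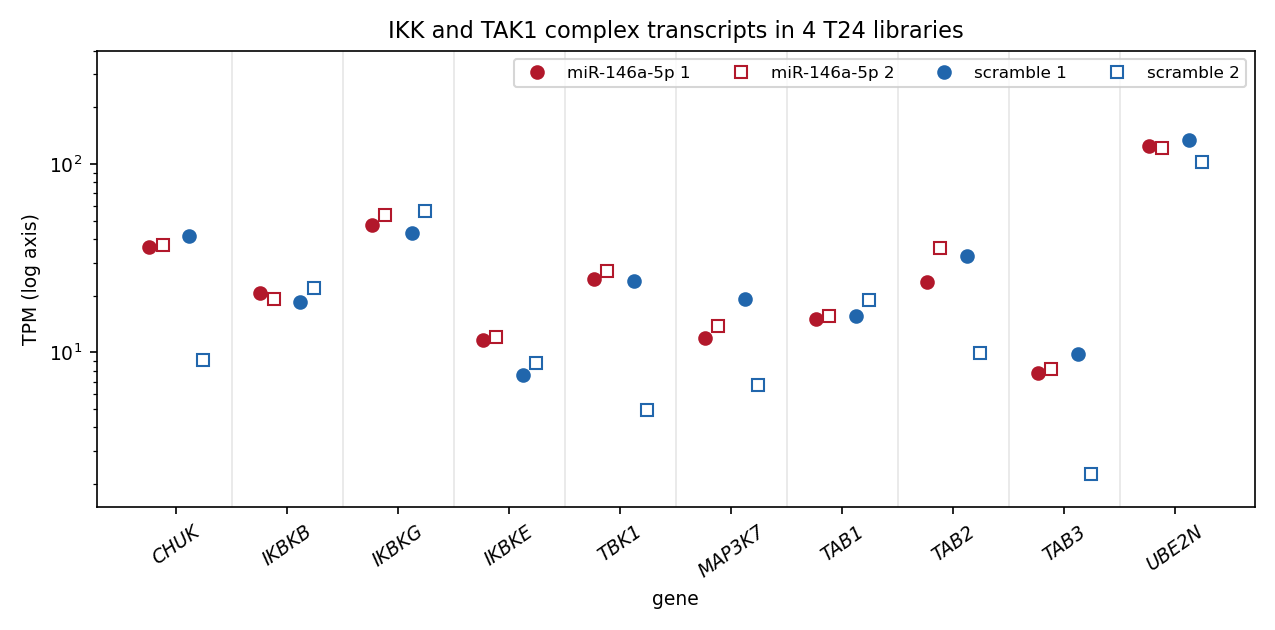
Transcript level in TPM (log axis) of the 10 genes in each of 4 libraries, miR-146a-5p in red to the left and scramble in blue to the right of each pair, filled circles for replicate 1 and open squares for replicate 2. The open blue square of scramble replicate 2 lies far below the other 3 libraries for CHUK, TBK1, MAP3K7, TAB2 and TAB3.

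Levels per transcript length were given by the authors' TPM, which allows genes to be ordered. In miR-146a-5p cells UBE2N was the most abundant at 123 ± 1.97 TPM, followed by IKBKG at 50.5 ± 4.17, CHUK at 36.7 ± 0.424, TAB2 at 29.8 ± 8.64, TBK1 at 25.8 ± 1.64, IKBKB at 19.9 ± 1.14, TAB1 at 15.3 ± 0.382, MAP3K7 at 12.9 ± 1.36, IKBKE at 11.8 ± 0.226 and TAB3 at 7.97 ± 0.304 TPM (SD, n = 2 each). Neighbours in that order had ranges that overlapped in 2 cases, TAB2 with TBK1 and MAP3K7 with IKBKE. UBE2N had rank 1 and IKBKG rank 2 in all 4 libraries, whereas CHUK had rank 3 in both miR-146a-5p libraries and in scramble replicate 1 and rank 6 in scramble replicate 2.

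CHUK encodes IKK-alpha, the kinase subunit that also drives the non-canonical NF-kB route (ENSG00000213341, GRCh38 chr10:100188298-100229619, minus strand). It had 36.4 and 37.0 TPM in the miR-146a-5p libraries, against 41.7 and 9.11 TPM in the scramble libraries. The miR-146a-5p values lay between the scramble values, close to replicate 1 and far above replicate 2. Its log2 fold change was 0.56 ± 0.69 (SE), with a 95% interval from -1.30 to 2.42, and did not pass (edgeR adjusted p = 0.970).

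IKBKB encodes IKK-beta, the kinase that carries most IkB phosphorylation in the canonical route (ENSG00000104365, chr8:42271302-42332653, plus strand). It had 20.7 and 19.1 TPM with miR-146a-5p, against 18.5 and 22.0 TPM with scramble. The groups overlapped, with a log2 fold change of 0.04 ± 0.20 (SE) and a 95% interval from -0.51 to 0.58.

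IKBKG encodes NEMO, the regulatory subunit that binds ubiquitin chains and holds the kinases together (ENSG00000269335, chrX:154541199-154565046, plus strand). It had 47.6 and 53.5 TPM with miR-146a-5p, against 43.2 and 56.6 TPM with scramble. The groups overlapped and the log2 fold change was -0.07 ± 0.26 (SE). Reads of IKBKG can be shared with its near-identical pseudogene IKBKGP1, which was listed at 454 and 237 estimated counts with miR-146a-5p and at 358 and 462 with scramble. Summing both rows gave 1827 and 1667 counts with miR-146a-5p against 1642 and 2359 with scramble, and a log2 fold change of -0.08.

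The balance of the IKK subunits differed by library more than by group. The ratio of CHUK to IKBKB in TPM was 1.76 and 1.94 in the miR-146a-5p libraries, against 2.25 and 0.414 in the scramble libraries. The ratio of IKBKG to CHUK was 1.31 and 1.44 with miR-146a-5p, against 1.04 and 6.21 with scramble. In each ratio scramble replicate 2 was the library apart, and both miR-146a-5p libraries fell between the scramble libraries.

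TBK1 is the kinase that acts on IRF3 after nucleic acid sensing and also in selective autophagy (ENSG00000183735, chr12:64451880-64502108, plus strand). It had 24.6 and 26.9 TPM with miR-146a-5p, against 24.1 and 4.97 TPM with scramble. Both miR-146a-5p libraries lay above both scramble libraries, by a narrow margin over scramble replicate 1 and by 4.60-fold in CPM over scramble replicate 2. The log2 fold change was 0.84 ± 0.71 (SE), the highest of the 10, with a 95% interval from -1.08 to 2.76 (edgeR adjusted p = 0.970).

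IKBKE encodes IKK-epsilon, the inducible relative of TBK1 (ENSG00000263528, chr1:206470476-206496889, plus strand). Its estimated counts were 487 and 453 with miR-146a-5p, against 356 and 460 with scramble, which corresponds to 22.8 and 22.2 CPM against 15.9 and 20.2 CPM. In TPM it had 11.7 and 12 with miR-146a-5p, against 7.56 and 8.82 with scramble. The groups did not overlap on either normalised scale. IKBKE was 1 of 2 members, with TBK1, whose miR-146a-5p values exceeded both scramble values in CPM, against 18.0% of all genes. The log2 fold change was 0.31 ± 0.23 (SE), with a 95% interval from -0.30 to 0.93, and did not pass (edgeR adjusted p = 0.970). TBK1 exceeded IKBKE in TPM by 2.11 and 2.24 times in the miR-146a-5p libraries and by 3.18 times in scramble replicate 1, while in scramble replicate 2 the ratio was 0.563.

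MAP3K7 encodes TAK1, the kinase that activates both IKK and the stress-activated MAP kinases (ENSG00000135341, chr6:90513573-90587045, minus strand). It had 45.4 and 50.6 CPM with miR-146a-5p, against 68.7 and 28.3 CPM with scramble. The miR-146a-5p libraries sat between the scramble libraries and the log2 fold change with 4 libraries was -0.01 ± 0.47 (SE). Against scramble replicate 1 the mean of the miR-146a-5p libraries differed by -0.52 in log2 CPM, and against scramble replicate 2 by 0.76. The 2 scramble libraries thus put MAP3K7 on opposite sides. The ratio of TAB1 to MAP3K7 in TPM was 1.26 and 1.12 with miR-146a-5p, against 0.810 and 2.82 with scramble.

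TAB1 binds TAK1 and triggers its autophosphorylation (ENSG00000100324, chr22:39399741-39437060, plus strand). It had 36.0 and 36.3 CPM with miR-146a-5p, against 35.4 and 50.2 CPM with scramble, so that the groups overlapped on this scale. In TPM it had 14.98 and 15.52 with miR-146a-5p, against 15.6 and 19.04 with scramble. There both miR-146a-5p libraries lay below both scramble libraries, by a narrow margin under replicate 1. The log2 fold change was -0.24 ± 0.25 (SE), with a 95% interval from -0.93 to 0.45.

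TAB2 and TAB3 are related adaptors that read lysine-63 ubiquitin chains through a zinc finger. TAB2 (ENSG00000055208, chr6:149218641-149411613, plus strand) had 1460 and 1439 estimated counts with miR-146a-5p, against 1828 and 782 with scramble. TAB3 (ENSG00000157625, chrX:30827442-30975084, minus strand) had 876 and 865 counts with miR-146a-5p, against 1109 and 295 with scramble. Both genes showed the same arrangement, with the miR-146a-5p libraries between the scramble libraries and nearer to replicate 1. Log2 fold changes were 0.26 ± 0.46 (SE) for TAB2 and 0.41 ± 0.67 (SE) for TAB3, and neither passed. TPM separated the miR-146a-5p libraries for TAB2, at 23.7 and 35.9, although the counts were nearly equal, which was the widest gap in TPM between these libraries among the members. TPM of TAB2 exceeded that of TAB3 in every library, by 3.06 and 4.39 times with miR-146a-5p and by 3.34 and 4.42 times with scramble.

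UBE2N encodes UBC13, which forms lysine-63 chains together with UBE2V1 or UBE2V2 (ENSG00000177889, chr12:93405673-93442262, minus strand). It had 124 and 122 TPM with miR-146a-5p, against 134 and 103 TPM with scramble. The groups overlapped, and the log2 fold change was 0.13 ± 0.19 (SE), the smallest standard error of the 10, with a 95% interval from -0.40 to 0.66. The copies UBE2NL and UBE2NP1, and TAB3P1, a pseudogene of TAB3, were listed at 0 in all libraries.

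Most of the spread among the members lay within the scramble group. The miR-146a-5p libraries differed over 2-fold for 0 of 10 members, against 2.71% of all tested genes, and the scramble libraries for 5 of 10, against 23.5% of all tested genes. The median absolute difference in log2 CPM over the members was 0.0479 between the miR-146a-5p libraries and 0.893 between the scramble libraries. Over all tested genes it was 0.117 and 0.480, so the scramble libraries were further apart there too. Relative to scramble replicate 1, scramble replicate 2 was lower by 4.14-fold for TBK1, 3.998-fold for CHUK, 3.81-fold for TAB3, 2.43-fold for MAP3K7 and 2.38-fold for TAB2. For IKBKG and TAB1 it was higher, by 0.54 and 0.50 in log2 CPM.

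**Figure D2:**
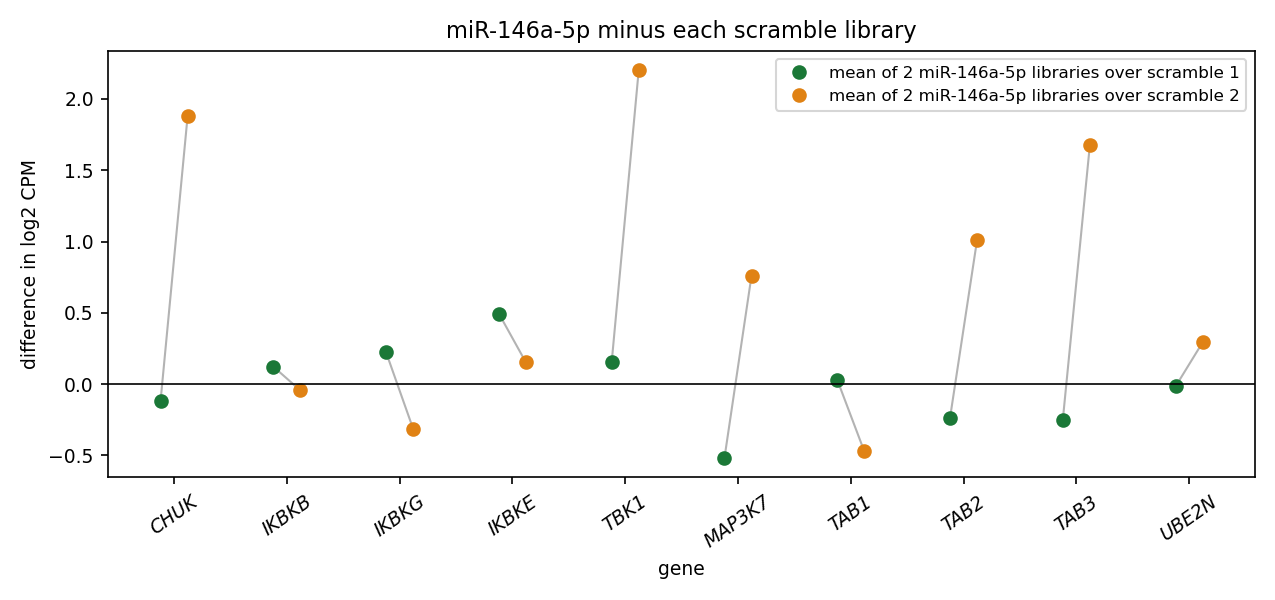
Difference in log2 CPM between the mean of the 2 miR-146a-5p libraries and scramble replicate 1 (green) or scramble replicate 2 (orange) for each gene, joined by a grey line. Against replicate 1 the values run from -0.52 (MAP3K7) to 0.49 (IKBKE), and against replicate 2 from -0.47 (TAB1) to 2.20 (TBK1).

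The members that scramble replicate 2 held low were those poor in G and C. GC content of the longest coding transcript was 38.7% in MAP3K7, 39.1% in CHUK, 39.3% in TBK1, 39.8% in TAB2, 39.9% in TAB3 and 41.7% in UBE2N. It was 52.0% in IKBKB, 58.7% in IKBKE, 60.4% in TAB1 and 62.6% in IKBKG, beside a median of 48.3% over all tested genes. All 6 members under 45% GC were lower in scramble replicate 2 than in scramble replicate 1, and all 4 members above 50% were higher. Across the 10 genes, which share the same 2 libraries, Pearson's r between GC content and that difference was 0.899, and it was 0.669 across 14679 tested genes. Over all tested genes, 5451 genes under 45% GC had a median difference of -1.01 in log2 CPM, and 4298 genes of at least 55% GC had a median of 0.48. What made the scramble libraries differ in this way was not tested.

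**Figure D3:**
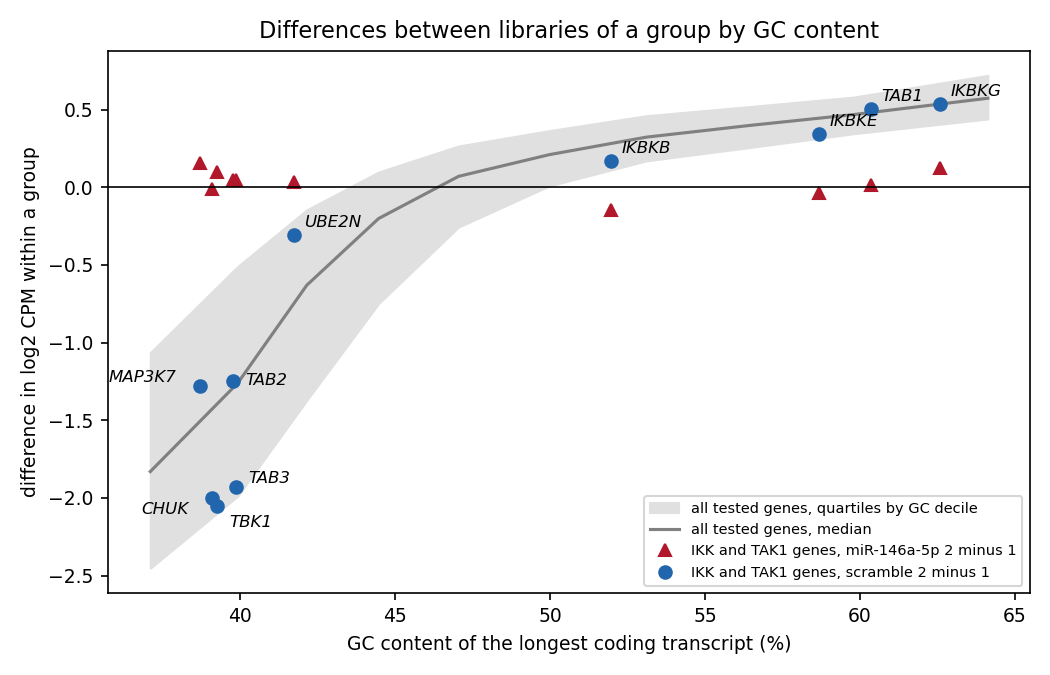
Difference in log2 CPM between replicate 2 and replicate 1 of each group (red triangles miR-146a-5p, blue circles scramble) against the GC content of the longest coding transcript in percent, with the median (line) and quartiles (band) of the scramble difference over all tested genes, grouped into deciles of GC. The red triangles stay near 0 at every GC content, while the blue circles run from -2.05 for TBK1 to 0.54 for IKBKG.

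Leaving out scramble replicate 2 changed the calls of 2 members. With 1 scramble library left, its variation was taken from the miR-146a-5p pair, so these p-values rest on the spread of 1 group. IKBKE was higher with miR-146a-5p, by 1.42-fold (log2 fold change 0.51 ± 0.14 SE, 95% interval 0.24 to 0.78, edgeR adjusted p = 0.00220), making 1 member called higher against 10.1% of all genes. MAP3K7 was lower by 1.42-fold (log2 fold change -0.50 ± 0.10 SE, 95% interval -0.69 to -0.32, edgeR adjusted p = 2.80e-06), making 1 member called lower against 11.7% of all genes. DESeq2 on the same 3 libraries called MAP3K7 (adjusted p = 0.0207) and not IKBKE (adjusted p = 0.246), so 1 member against 9.64% of all genes. These shares of members are near the background of all genes.

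The other 8 members did not pass against scramble replicate 1 alone. IKBKG had a log2 fold change of 0.24 (edgeR adjusted p = 0.0531), TAB2 of -0.22 (adjusted p = 0.0556) and TAB3 of -0.24 (adjusted p = 0.0850). TBK1 had a log2 fold change of 0.17 (edgeR adjusted p = 0.239) and CHUK of -0.11 (adjusted p = 0.418). The 2 genes with the highest fold changes over all 4 libraries thus had small differences against this library.

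Leaving out scramble replicate 1 changed the calls of 8 members. With edgeR 6 members were called higher, against 28.5% of all genes, namely CHUK, TBK1, MAP3K7, TAB2, TAB3 and UBE2N, with log2 fold changes between 0.29 for UBE2N and 2.21 for TBK1. IKBKG (-0.31) and TAB1 (-0.47) were called lower, against 26.4% of all genes. MAP3K7, lower against scramble replicate 1, was higher against scramble replicate 2 at a log2 fold change of 0.77 (edgeR adjusted p = 4.51e-11). DESeq2 called 7 of these 8 members, without IKBKG, against 38.1% of all genes. The 6 genes called higher were the 6 members under 45% GC, and those called lower had the highest GC content of the set.

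Removing each library's trend on GC content and length from the counts of all 4 libraries narrowed the interval of every member except UBE2N. No gene of the table passed, with a lowest edgeR adjusted p of 0.0804, and 2 members had an unadjusted p under 0.05, against 11.6% of all genes. They were IKBKE, with a log2 fold change of 0.44 ± 0.11 (SE, edgeR adjusted p = 0.338), and MAP3K7, with -0.44 ± 0.12 (SE, adjusted p = 0.359). In the same fit TBK1 had a log2 fold change of 0.61 ± 0.28 (SE) and CHUK of 0.31 ± 0.24 (SE). IKBKE and TBK1 had a positive log2 fold change in all 20 fits that were run, from 0.15 to 0.53 for IKBKE and from 0.16 to 2.21 for TBK1. MAP3K7 was positive in 8 and negative in 12. The other members changed sign in at least 2 of the 20 fits. All 20 fits reuse the same 4 libraries. For IKBKE and TBK1 both miR-146a-5p libraries lay above both scramble libraries in CPM, as for 18.0% of all genes. Leaving out 1 library could thus hardly change their sign, and the count adds no separate support.

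**Figure D4:**
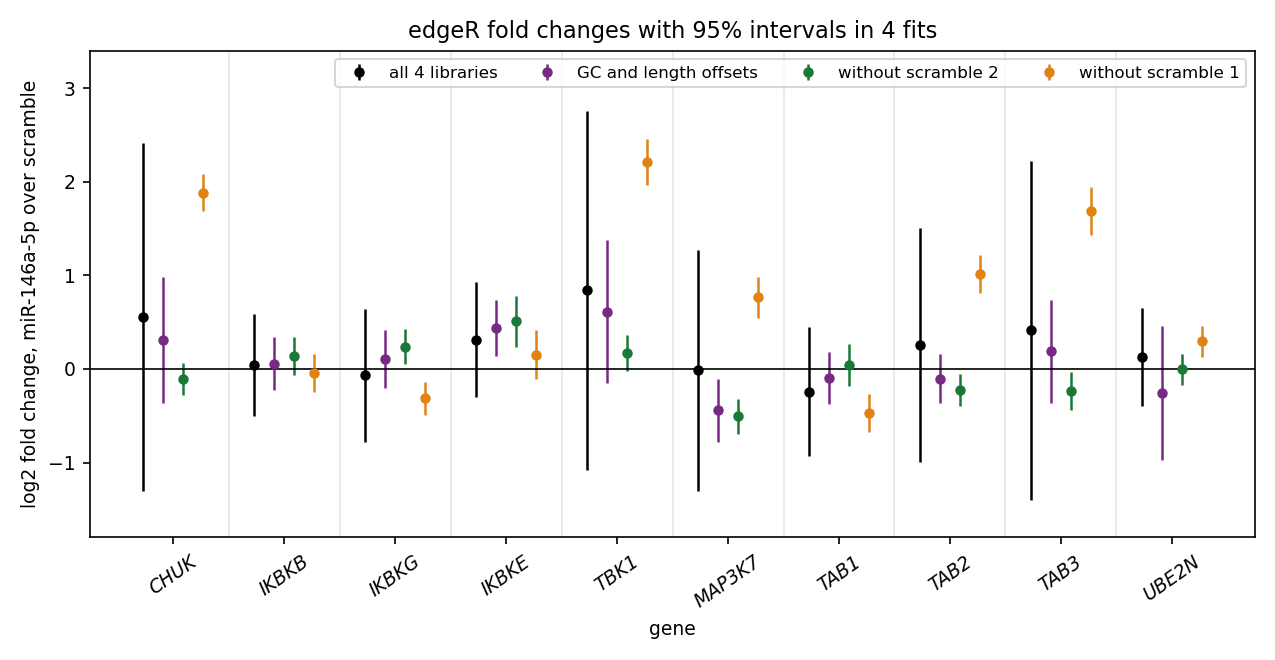
Log2 fold change of miR-146a-5p over scramble with its 95% interval for each gene in 4 edgeR fits: all 4 libraries (black), GC and length offsets (purple), without scramble replicate 2 (green) and without scramble replicate 1 (orange). The black intervals cross 0 for all 10 genes, and MAP3K7 lies below 0 in green (-0.50) and above 0 in orange (0.77).

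The rest of the pathway was read from 4 lists with 75 tested genes. edgeR called 0 of them, against 0% of all genes, and 6 had an unadjusted p under 0.05, against 3.71% of all genes. DESeq2 called 3 of them, IRAK1, CARD10 and TNFAIP3, against 0.324% of all genes. The lists were chosen with earlier results of these data known, and IRAK1 was already the check of the labels. These shares are therefore not read as a result about the pathway. Of 22 upstream ubiquitin ligases and adaptors, DESeq2 called 0 higher and 2 lower, IRAK1 and CARD10. The median edgeR log2 fold change of the list was 0.00. CARD10, a scaffold that joins receptors to BCL10 and MALT1, had 553 and 600 counts with miR-146a-5p, against 1430 and 2288 with scramble. With DESeq2 its log2 fold change was -1.59 ± 0.40 (SE, adjusted p = 0.0262), and with edgeR -1.57 ± 0.30 (SE, adjusted p = 0.970). TRAF6 had 213 and 178 counts with miR-146a-5p, against 431 and 291 with scramble. With all 4 libraries its log2 fold change was -0.78 ± 0.30 (SE) and did not pass (edgeR adjusted p = 0.970). Without scramble replicate 2 the edgeR log2 fold changes were -2.18 for IRAK1, -1.20 for CARD10 and -1.03 for TRAF6. In CPM both miR-146a-5p libraries lay below both scramble libraries for 7 of the 22, among them CARD10, IRAK1 and TRAF6, against 17.9% of all genes. They lay above both for 3, against 18.0% of all genes.

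Of 15 kinase partners, scaffolds and other activating kinases, 0 were called by DESeq2, with a median edgeR log2 fold change of 0.18. OPTN, a ubiquitin-binding partner of TBK1, had 3112 and 2883 counts with miR-146a-5p, against 2152 and 2116 with scramble (log2 fold change 0.60 ± 0.17 SE, edgeR adjusted p = 0.970). MAP3K8, a kinase held in check by NFKB1, had 108 and 135 counts with miR-146a-5p, against 84 and 91 with scramble. In CPM both miR-146a-5p libraries lay above both scramble libraries for each of these genes, as for 18.0% of all genes. The 2 genes were named for the smallest edgeR p of their list, so this adds no separate support. In TPM the groups of MAP3K8 overlapped, at 4.68 and 5.85 with miR-146a-5p against 4.82 and 3.97 with scramble. Without scramble replicate 2 the edgeR log2 fold changes were 0.59 for OPTN and 0.64 for MAP3K8.

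Of 18 negative regulators, DESeq2 called 1 higher and 0 lower, with a median edgeR log2 fold change of 0.00. The gene called was TNFAIP3, which encodes the ubiquitin-editing enzyme A20 and is itself a target gene of NF-kB. It had 1076 and 1074 counts with miR-146a-5p, against 441 and 504 with scramble. With DESeq2 its log2 fold change was 1.28 ± 0.31 (SE, adjusted p = 0.0152), and with edgeR 1.30 ± 0.20 (SE, adjusted p = 0.959). Without scramble replicate 2 the edgeR log2 fold change was 1.40.

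Of 20 substrates and next-tier kinases, 0 were called by DESeq2, with a median edgeR log2 fold change of 0.07. MAP2K3, a kinase of p38 that TAK1 can activate, had 898 and 899 counts with miR-146a-5p, against 1510 and 2315 with scramble (log2 fold change -0.98 ± 0.28 SE, edgeR adjusted p = 0.970). NFKBIA, which encodes IkB-alpha, the inhibitor that IKK phosphorylates, had 2715 and 2248 counts with miR-146a-5p, against 1354 and 2008 with scramble (log2 fold change 0.67 ± 0.27 SE, edgeR adjusted p = 0.970). In CPM both miR-146a-5p libraries lay below both scramble libraries for MAP2K3, as for 17.9% of all genes. They lay above both for NFKBIA, as for 18.0%. The 2 genes were named for the smallest edgeR p of their list, so this adds no separate support. Neither passed in the fit of all 4 libraries. Without scramble replicate 2, which left 1 scramble library, the edgeR log2 fold changes were -0.64 for MAP2K3 and 0.98 for NFKBIA.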

How the data were processed

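Libraries were made with a TruSeq kit from Trizol-extracted RNA, per the labels' protocols. HISAT2 2.0.1, HTSeq 0.6.1, cutadapt 1.9.1, the hg19 build and DESeq2 are listed, without roles, per the submitters' processing notes. The deposited table gives estimated counts per gene, of which 34.3% were fractional in genes detected in all libraries, so reads may have been shared among copies by a model. The authors also deposited TPM per library, and their p-values, ratio (fold change) and log2 fold change were read only as their own values. No source used here states whether counting used strand.

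Counts were rounded and tested with edgeR 4.0.16 (R 4.3.3), quasi-likelihood, two-sided, with TMM factors, filterByExpr (minimum count 10, minimum total 15) and Benjamini-Hochberg adjustment over 14810 genes at a threshold of 0.05. CPM uses the TMM library sizes, and log2 CPM a prior count of 2. Alternatives were DESeq2 1.42.0, limma 3.58.1 on log2(TPM + 1) or log2(TPM + 0.1), other normalizations and filters, offsets for GC content and length, a replicate block, and leaving out each library. DESeq2 without each library and a crossed block were chosen after seeing the data. With 2 libraries against 2, an exact permutation test cannot go below p = 0.333. The scripts were tested on simulated data. The members and pathway lists were chosen with earlier results of these data known. All 10 members were named, with list genes past the threshold in edgeR, else in DESeq2, else up to 2 per list with the smallest edgeR p. TRAF6 was named as well, as a known target whose seed site is shown. Gene loci are from GENCODE release 29 on GRCh38, 1-based, matched by gene identifier, not from the authors' build.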

Additional observations from a re-analysis of the deposited data

How the results depend on the processing

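No member passed the threshold in any fit that used all 4 libraries, or in a fit without either miR-146a-5p library. Over all genes, DESeq2 called 52 and, of the pathway lists, 3. Leaving out 1 library gave 2 to 8421 genes over both tools, 0 to 8 members and 0 to 54 genes of the pathway lists. DESeq2 without scramble replicate 1 gave 5349 genes, 7 members and 35 list genes, and without scramble replicate 2 it gave 1107 genes, 1 member and 14 list genes. Without scramble replicate 1, edgeR gave 54 of 75 tested list genes, against 54.9% of all genes. The DESeq2 counts were 35 of 75 tested list genes against 38.1% of all genes without scramble replicate 1. Without scramble replicate 2 they were 14 of 74 against 9.64%. The lone library was assumed to vary like the other group, so these counts are not read as a result about the pathway.

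The replicate block called 5 genes and 0 members. Same-numbered libraries had deviations correlated at -0.145 (2 pairs), so the numbers were not read as pairing. With crossed numbers 0 genes and 0 members were called. Both put MAP3K7 at 0.12, and the replicate block changed no member's call.

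Of the member log2 fold changes under alternatives, 142 kept their direction and side of the threshold, 16 passed it in the same direction and 32 changed sign. Of those 32, 2 also passed the threshold, both of MAP3K7 without scramble replicate 1, so that 18 passed in all. With GC and length offsets IKBKG was 0.11, TAB2 -0.10 and UBE2N -0.26. With limma on log2(TPM + 1) IKBKB was -0.019, IKBKG 0.028 and MAP3K7 0.15, and with log2(TPM + 0.1) IKBKB was -0.020, IKBKG 0.028 and MAP3K7 0.17. The causes were not tested. With edgeR, leaving out 1 library gave log2 fold changes of -0.11 to 1.88 for CHUK, -0.040 to 0.14 for IKBKB, -0.31 to 0.24 for IKBKG and -0.50 to 0.77 for MAP3K7. It gave -0.47 to 0.044 for TAB1, -0.22 to 1.01 for TAB2, -0.24 to 1.68 for TAB3 and -0.0029 to 0.29 for UBE2N. DESeq2 without scramble replicate 2 gave the opposite sign to all 4 libraries for CHUK (-0.12), IKBKG (0.23), TAB1 (0.034), TAB2 (-0.23), TAB3 (-0.25) and UBE2N (-0.013). Without scramble replicate 1 it did so for IKBKB (-0.048) and MAP3K7 (0.76), and without miR-146a-5p replicate 1 for IKBKB (-0.054) and MAP3K7 (0.028). Each member had at least 281 counts in every library.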
